A study of Homo sapiens with 12 samples.

Results

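The replication-dependent histone genes were examined in a CUT&RUN series on trimethylated lysine 4 of histone H3 (H3K4me3). They were taken by name and position: protein-coding genes on chromosomes 1 and 6 with the symbols H1-1 to H1-6 or with symbols starting H2AC, H2BC, H3C or H4C followed by digits. This gave 63 of the 20136 protein-coding genes annotated on chromosomes 1 to 22, X and Y of GRCh37, 51 of them on chromosome 6 and 12 on chromosome 1. By histone type there were 6 linker histone H1 genes, 16 H2A genes, 16 H2B genes, 13 H3 genes and 12 H4 genes. They lie in a 6p22 cluster of 30 genes, called larger here for its gene number (chr6:25718625-26290866 with 5 kb on each side), a second 6p22 cluster of 21 genes (chr6:27088676-27866669), a 1q21 cluster of 10 genes (chr1:149749245-149864515) and a 1q42 pair of 2 genes (chr1:228617478-228655805). The canonical transcript of each of the 63 genes has 1 exon, with a median length of 492 bases (386 to 2224).

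Core histones H2A, H2B, H3 and H4 form the protein spool of the nucleosome, and H1 binds the DNA between nucleosomes. Replication-dependent histone genes supply these proteins in bulk while DNA is copied in S phase. Their transcripts carry no introns and end in a stem-loop in place of a poly(A) tail, and their clusters gather in a nuclear body with NPAT, a transcription coactivator. H3K4me3 is a histone mark found around the start sites of active genes. CUT&RUN maps it by letting an antibody guide a nuclease that releases nearby DNA fragments for sequencing.

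The cells were BON1, a human line established from a pancreatic neuroendocrine tumour. The control line is labelled BON1/TGL/pQ and the other, BON1/TGL/HA-Bcl-xL, overexpresses HA-tagged Bcl-xL, a protein that blocks apoptosis, so both lines carry what the labels call TGL, which they do not explain, and both grew in medium with puromycin. Peak lists from 3 control and 2 HA-Bcl-xL H3K4me3 libraries (replicates 2 and 3) were used, with 3 IgG libraries of each line as background, from 500000 cells per condition. The labels name no clones and do not say whether replicates were separate cultures, so p-values measure only the spread between these libraries, which may be technical.

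The stretches before the start of 5 histone genes and between the starts of 3 head-to-head pairs are shown because they span the results that follow: the peaks upstream of H3C4, shared stretches in H2A and H2B pairs, 1 H1 gene with a peak against 1 without, and 1 H4 gene whose leading peaks lie past its transcript against 1 without a peak. Sequences are from GRCh37, lower case, with motif matches on either strand in capitals. The motifs are the TATA box as TATAAA, the pentamer CCAAT, the octamer as ATTTGCAT and the H1 box as AAACACA. Matches that overlap or touch run together. Stretches of genes read 5′ to 3′ towards the start site on the strand given, and stretches of pairs run from start to start on the plus strand.
H3C4, 250 bases before the start, minus strand, chr6:26197515-26197764: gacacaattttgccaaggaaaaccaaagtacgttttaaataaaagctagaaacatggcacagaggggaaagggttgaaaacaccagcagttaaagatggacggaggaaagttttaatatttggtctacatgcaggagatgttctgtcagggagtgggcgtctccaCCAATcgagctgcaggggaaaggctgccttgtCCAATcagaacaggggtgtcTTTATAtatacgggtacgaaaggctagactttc
H1-3, 250 bases before the start, minus strand, chr6:26235216-26235465: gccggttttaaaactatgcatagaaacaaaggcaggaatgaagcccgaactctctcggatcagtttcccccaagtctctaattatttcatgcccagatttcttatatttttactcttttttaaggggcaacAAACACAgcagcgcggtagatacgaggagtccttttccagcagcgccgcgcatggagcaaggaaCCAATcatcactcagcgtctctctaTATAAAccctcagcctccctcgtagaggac
H1-5, 250 bases before the start, minus strand, chr6:27835367-27835616: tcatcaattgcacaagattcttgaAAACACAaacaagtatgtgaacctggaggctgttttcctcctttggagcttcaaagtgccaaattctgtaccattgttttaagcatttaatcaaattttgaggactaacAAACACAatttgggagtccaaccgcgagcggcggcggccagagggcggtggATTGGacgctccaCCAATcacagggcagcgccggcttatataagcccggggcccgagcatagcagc
H2AC25 to H2BC26, 231 bases, chr1:228645574-228645804: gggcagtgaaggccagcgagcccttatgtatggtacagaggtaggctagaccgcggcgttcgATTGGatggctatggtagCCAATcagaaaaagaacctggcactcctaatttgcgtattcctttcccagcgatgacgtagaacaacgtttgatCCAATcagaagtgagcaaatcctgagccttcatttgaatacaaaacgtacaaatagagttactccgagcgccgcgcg
H2BC12 to H2AC12, 252 bases, chr6:27114634-27114885: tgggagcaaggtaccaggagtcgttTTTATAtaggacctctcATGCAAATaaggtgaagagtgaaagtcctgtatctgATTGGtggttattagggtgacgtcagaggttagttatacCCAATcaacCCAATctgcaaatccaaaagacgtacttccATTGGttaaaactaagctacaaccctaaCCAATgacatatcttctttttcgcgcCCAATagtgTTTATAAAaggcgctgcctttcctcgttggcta
H2AC1 to H2BC1, 216 bases, chr6:25726790-25727005: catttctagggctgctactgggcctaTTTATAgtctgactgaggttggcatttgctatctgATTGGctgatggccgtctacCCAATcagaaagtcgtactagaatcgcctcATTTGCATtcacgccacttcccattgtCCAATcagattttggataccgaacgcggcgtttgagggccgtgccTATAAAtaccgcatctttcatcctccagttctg
H4C5, 250 bases before the start, plus strand, chr6:26204588-26204837: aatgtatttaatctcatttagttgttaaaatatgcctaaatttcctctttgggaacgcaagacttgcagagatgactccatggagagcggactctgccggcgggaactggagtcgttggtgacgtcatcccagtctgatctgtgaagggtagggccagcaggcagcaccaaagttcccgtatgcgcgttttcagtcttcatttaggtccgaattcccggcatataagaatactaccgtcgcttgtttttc
H4C9, 250 bases before the start, plus strand, chr6:27106811-27107060: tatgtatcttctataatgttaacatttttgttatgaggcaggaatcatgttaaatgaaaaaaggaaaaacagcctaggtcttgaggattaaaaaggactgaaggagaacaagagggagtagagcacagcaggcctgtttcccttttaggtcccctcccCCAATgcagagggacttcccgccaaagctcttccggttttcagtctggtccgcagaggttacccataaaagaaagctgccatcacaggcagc

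In the 300 bases from 250 before to 50 after the start, TATAAA or its reverse complement was found at 42 of the 63 histone genes, or 66.7%, against 9.81% of all 20136 genes. CCAAT was found at 55 histone genes, or 87.3%, against 35.9% of all genes. All 6 H1, 16 H2A, 16 H2B and 13 H3 genes held a CCAAT match, while 4 of the 12 H4 genes did. The octamer, the site read by POU-domain factors such as POU2F1, was found at 12 H2A and 12 H2B genes and at no H1, H3 or H4 gene, so at 38.1% of histone genes against 1.58% of all genes. The H1 box was found at 6 of 6 H1 genes, 1 H2A gene and 2 H3 genes, 14.3% in all, against 4.22% of all genes. The median GC content of these 300 bases was 44% for histone genes and 63.7% for all genes, while the ratio of observed to expected CpG was 0.770 and 0.773. Genes of most head-to-head pairs share much of this window, so 1 match can count for both genes of a pair. These matches describe letters in a window and are not measured binding.

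The H3K4me3 lists held 17711, 12159 and 10247 peaks in control replicates 1 to 3. In HA-Bcl-xL replicate 2 there were 16379 peaks and in replicate 3 there were 15497. The IgG lists held 1674 to 2113 peaks in control and 244 to 268 in HA-Bcl-xL cells. The lists give no read totals. The lowest background they imply, which scales with depth, was 0.0478 to 0.0705 fragments in the 5 H3K4me3 libraries, lowest in control replicate 3. Among neuroendocrine marker genes, CHGB and NEUROD1 had a promoter peak in all 5 libraries (as 21.3% of all genes did), 4 had one in some (26.9%), and ENO2, SSTR2, INSM1, ISL1 and DDC had none in any (51.8%). Of these 4, TPH1 had 199 and 107 bases in the HA-Bcl-xL libraries and no peak in control, a pattern found at 0.844% of all genes. None of 7 marker genes of other cell types had one.

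H3K4me3 peaks were more frequent at the histone genes than at protein-coding genes as a whole in every H3K4me3 library. A gene was counted when a peak overlapped the 1 kb on either side of its most 5′ annotated end by at least 1 base. In the control libraries 47, 33 and 32 of 63 histone genes had such a peak (74.6, 52.4 and 50.8%), against 40.4, 32.4 and 28.2% of all 20136 genes. In HA-Bcl-xL libraries 40 and 34 did (63.5 and 54.0%), against 38.1 and 36.5% of all genes. The share at histone genes was 1.48 to 1.85 times that of all genes. Control replicate 1, which has the longest list, was the highest in both. No histone gene had a peak in any of the 6 IgG libraries, where 0.253, 0.223 and 0.243% of all genes in control and 0.0199, 0.0397 and 0.00497% in HA-Bcl-xL cells had one.

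Counted over libraries, 23 of the 63 histone genes had a promoter peak in all 5, where 21.3% of all genes did. Another 27 had one in 1 to 4 libraries (26.9% of all genes), and 13 had none (51.8% of all genes), so that 50 had one in at least 1 library (48.2% of all genes). Neighbouring genes can share a peak, so these counts are not independent: 18, 6 and 4 peaks in control and 10 and 7 in HA-Bcl-xL libraries lay in the windows of several histone genes. With each peak given to its nearest 5′ end only, 18 histone genes (28.6%) had one in all 5, against 16.7% of all genes. When peaks with a −log10 q under 5 were left out, 12 histone genes (19.0%) had one in all 5, against 15.3% of all genes, a smaller excess than with all peaks. Per library, 42, 26 and 18 histone genes in control and 38 and 25 in HA-Bcl-xL libraries then had one, against 7112, 5178 and 4301, and 6361 and 6122 of all 20136 genes, a larger share of histone genes in each library. Within 2.5 kb 41 (65.1%) had a peak in all 5, against 25.6%. When each list was cut to its 10247 strongest peaks, the length of the shortest, control replicate 1 fell from 47 to 31 histone genes, and 16 (25.4%) were found in all 5, against 17.9% of all genes.

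**Figure D1:**
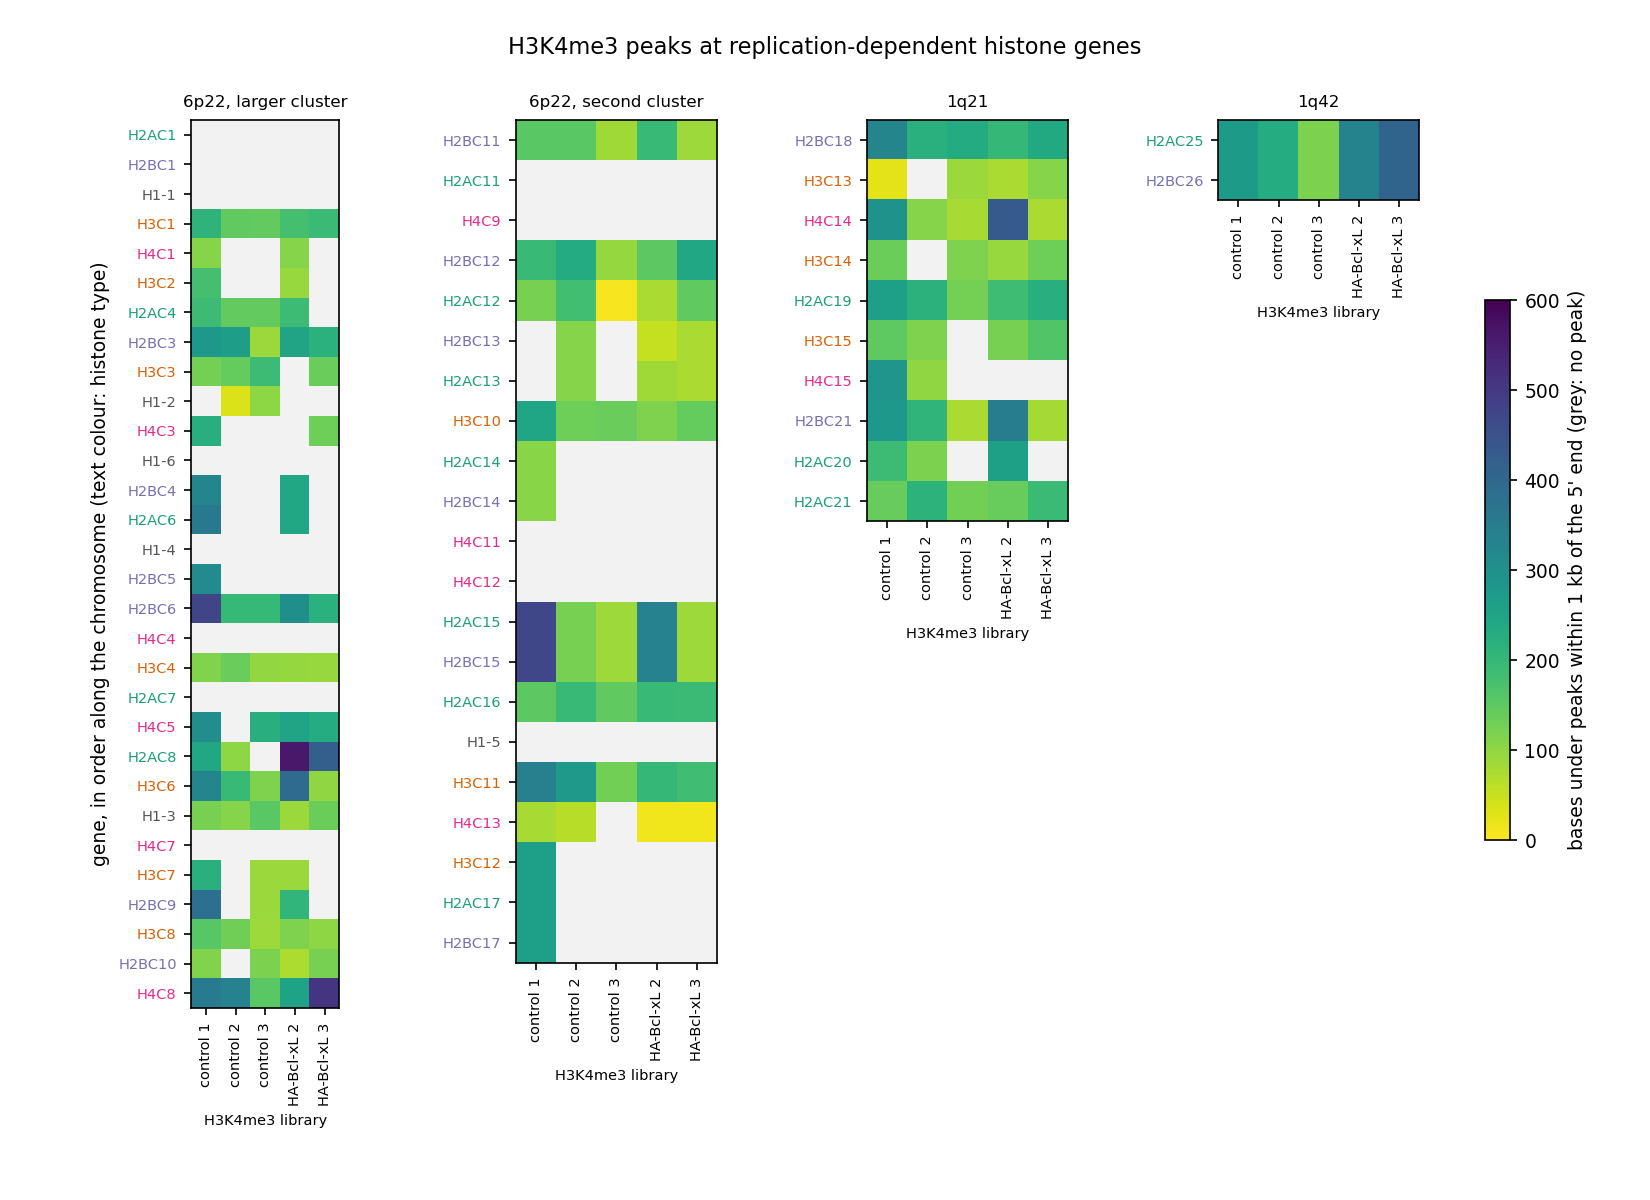
Bases under H3K4me3 peaks within 1 kb of the most 5′ end of each of the 63 histone genes (rows, in chromosome order within 4 clusters) in 3 control and 2 HA-Bcl-xL libraries (columns), with grey for no peak. Of the rows, 23 (36.5%) are filled in all 5 libraries, where 21.3% of all protein-coding genes would be. Another 13 (20.6%) are grey in all 5, where 51.8% of all protein-coding genes would be. The grey rows include 4 of the 6 H1 genes (66.7%) and 5 of the 12 H4 genes (41.7%, below the share of all genes).

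The histone types differed in how many genes carried a peak. All 13 H3 genes and 15 of 16 H2B genes had one in at least 1 library, as did 13 of 16 H2A genes, 7 of 12 H4 genes and 2 of 6 H1 genes. Of all protein-coding genes 48.2% did. No peak in any library was found at 41.7% of H4 and 66.7% of H1 genes, against 51.8% of all genes. H3C12 was counted only by its most 5′ end, 2280 bases from its canonical start, through the peak of the pair H2AC17 and H2BC17 in control replicate 1. In all 5 libraries, peaks were found at 8 H2B, 6 H2A, 6 H3, 2 H4 and 1 H1 genes. The H4 and H1 shares, 16.7% each, were near the 21.3% of all genes. H3 genes numbered 13, 8 and 10 in control and 11 and 10 in HA-Bcl-xL libraries, and H4 genes 7, 4 and 3 in control and 5 and 5 in HA-Bcl-xL libraries. H3 genes had the largest share in 4 of 5 libraries, and in control replicate 2 H2A genes did, with 10 of 16. The plot of shares by type gives every library. Each type is a small, linked group of genes, and the differences between types were not tested.

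**Figure D2:**
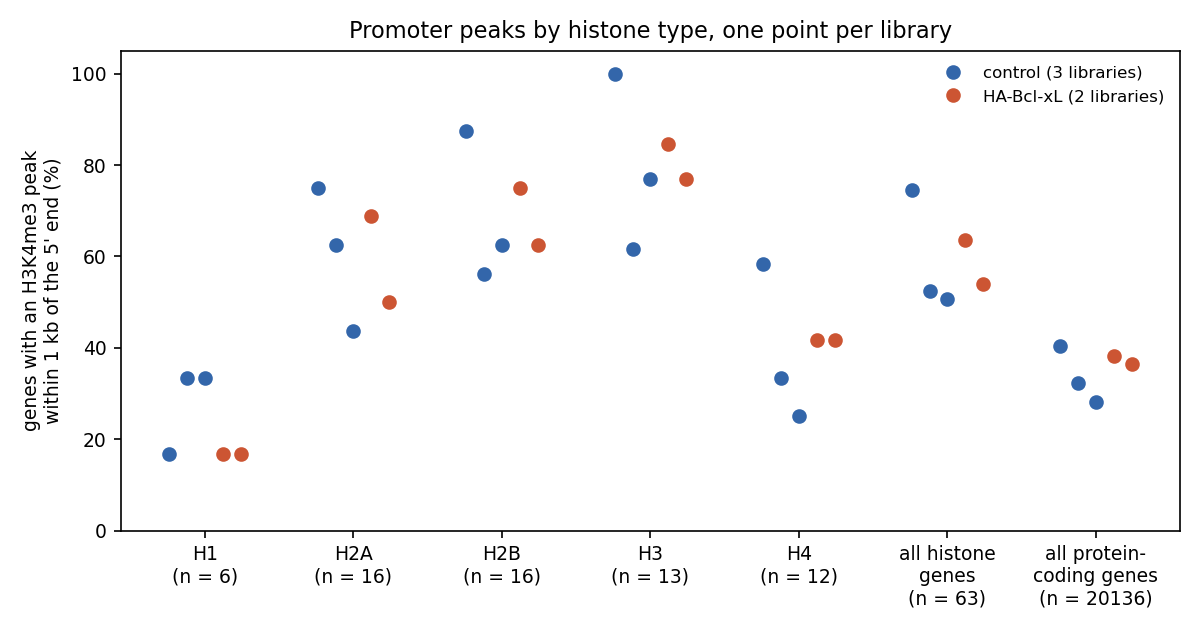
Percentage of genes whose 1 kb window on either side of the 5′ end holds an H3K4me3 peak, by histone type, for all 63 histone genes and for all 20136 protein-coding genes, 1 point per library (3 control, 2 HA-Bcl-xL). H3 is at 13 of 13 genes in control replicate 1 and H4 at 7 of 12 there, while all protein-coding genes lie between 28.2 and 40.4%.

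By cluster, all 10 genes at 1q21 had a peak in at least 1 library, where 48.2% of all genes did. Of these 10 genes 5 had one in all 5 libraries, as did the 2 genes at 1q42, against 21.3% of all genes. In the larger 6p22 cluster 8 of 30 genes (26.7%) had a peak in all 5 libraries, close to the 21.3% of all genes, while 14 had one in some and 8 (26.7%) in none, against 51.8% of all genes. In the second 6p22 cluster the numbers were 8 (38.1%), 8 and 5 (23.8%) of 21. Peaks were dense across these regions: the 1q21 span held 19.1, 9.54 and 9.54 peaks per 100 kb in control and 11.3 and 8.68 in HA-Bcl-xL libraries, where chromosome 1 as a whole held 0.493 to 0.831. The 6p22 span with 30 genes held 3.5 to 6.64 and the second, longer one 3.86 to 7.71 peaks per 100 kb, where chromosome 6 held 0.279 to 0.506. Other spans of like gene density were not compared, so the density is not shown to be particular to histone clusters. In the 6p22 span with 30 genes most peaks touched a histone gene's window, 27 of 38 in control replicate 1. In the second 6p22 span most lay elsewhere: 46, 33 and 24 peaks in control and 41 and 34 in HA-Bcl-xL libraries, of which 10, 9 and 6, and 13 and 11, were within 1 kb of the 5′ end of any annotated gene. That stretch is known for a large group of transfer RNA genes, which the annotation used here does not list, and their part in these peaks was not tested.

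Among the 6 linker histone genes, H1-3 alone had a peak in all 5 libraries. H1-3, a somatic H1 gene (chr6:26234440-26235215, minus strand, single exon), had 122, 108 and 153 bases under peaks in control and 91 and 134 in HA-Bcl-xL libraries. The fragments at its peak summit, solved from the authors' fold and p of each peak, numbered 16, 11 and 13 in control and 16 and 18 in HA-Bcl-xL libraries. Its summits lay 48, 57 and 77 bases before the start in control and 40 and 46 before it in HA-Bcl-xL libraries, all within the H1-3 stretch printed above. The 2 lines overlap in bases and fragments, while both HA-Bcl-xL summits were nearer the start than the 3 control summits, by 2 bases at the closest. H1-2, another somatic H1 gene, had a peak in control replicates 2 and 3 only, with 31 and 103 bases. The 31 bases are the edge of a peak past its 3′ end, and in the other 3 libraries the nearest peak was 1016 bases from the start, just outside the window, so the absence there depends on the window. H1-1, H1-4 and H1-5 and the testis-type H1-6 had none in any library, although each of the 6 genes holds an H1 box, H1-5 as 2 matches in the printed stretch.

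Among H3 genes, H3C4 (chr6:26197012-26197514, minus strand) had the highest mean rank: ordered by the authors' −log10 p within each list, its peak stood above 91.4, 92.3 and 89.1% of peaks in control and 92.3 and 89.7% in HA-Bcl-xL libraries. It had 31, 27 and 22 fragments at the summit in control and 28 and 26 in HA-Bcl-xL libraries, where the median promoter peak had 10 to 12. Its peaks were narrow, with 114, 136 and 98 bases in control and 94 and 92 in HA-Bcl-xL libraries. Its summits lay 66, 61 and 62 bases before the start in control and 72 and 76 before it in HA-Bcl-xL libraries. All 5 peaks therefore fell on the same short stretch, ending at chr6:26197635 to chr6:26197644, where they covered both CCAAT matches of the printed H3C4 sequence and reached its TATA match. The 2 HA-Bcl-xL libraries had the lowest widths, with the lowest control library 4 bases above them.

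Among H3 genes with a peak in all 5 libraries, H3C6 (chr6:26224427-26227701, plus strand) had the lowest mean rank, 44.1, against 90.9 for H3C4. Its peaks stood above 69.7, 26.5 and 29.5% of their lists in control and 67.0 and 27.7% in HA-Bcl-xL libraries. Bases under its peaks were 327, 195 and 116 in control and 390 and 99 in HA-Bcl-xL libraries, so that each line holds a wide and a narrow value. Its most 5′ end lies 936 bases before its canonical start, and the leading peak was at that end in 4 libraries, while summits lay within 1 kb of the canonical start in 3. The other H3 genes with a peak in all 5 were H3C1, H3C8, H3C10 and H3C11, with mean ranks of 78.7, 76.4, 61.1 and 76.0. H3C2, which had a peak in control replicate 1 and HA-Bcl-xL replicate 2, had the lowest mean rank of all histone genes with a peak, 5.82, a gene named after its values were seen. H3C13, H3C14 and H3C15 at 1q21 had peaks in 4 libraries each, H3C13 in control replicate 1 only through 25 bases at the window's edge from the H2BC18 peak. Each has a near-identical copy on these chromosomes, so that reads cannot be placed with certainty.

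H2A and H2B genes mostly stand in head-to-head pairs, their starts close together on opposite strands. Among the 63 genes selected there were 11 such pairs within 1 kb, and partners outside this selection were not sought. Of these pairs, 10 were an H2A with an H2B gene and 1 was H3C7 with H2BC9. The median distance between starts was 244 bases (194 to 979). In 9 pairs both genes were counted in the same number of libraries, 0 in 1 of these pairs, which the shared windows favour. A peak was present in a pair's windows in 35 cases of pair and library, and it reached the stretch between the starts in 21 of them. In 3 pairs both genes had a peak in all 5 libraries: H2AC25 with H2BC26, H2BC12 with H2AC12, and H2AC15 with H2BC15. In 1 pair, H2AC1 with H2BC1, neither had one in any.

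H2AC25 and H2BC26, the 1q42 pair, shared their peaks, with 274, 228 and 119 bases in control and 332 and 406 in HA-Bcl-xL libraries. Both HA-Bcl-xL libraries were wider than the 3 control libraries. The 231-base stretch between their starts, printed above, was covered over 185, 183 and 92 bases in control and over 231 and 201 bases in HA-Bcl-xL libraries. It holds 3 CCAAT matches and neither a TATAAA nor an octamer match. This was the smallest p for a higher width in HA-Bcl-xL cells among the histone genes, and it did not pass the test given below.

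H2BC12 and H2AC12 showed another arrangement. Between their starts lie 6 CCAAT, 3 TATAAA and 1 octamer match, the richest of the stretches printed. Peaks nonetheless covered that stretch only in control replicate 1, over 47 bases. The main peaks had their summits past the other end of H2BC12 and were 116, 230 and 96 bases wide in control and 152 and 241 in HA-Bcl-xL libraries. H2AC12 was counted in control replicate 3 through 9 bases at the edge of its window, the smallest overlap of any histone gene. On the other side of the 1 kb limit, H2AC11, the partner of H2BC11, was 1012 bases from the nearest peak and counted in no library, while H2BC11 had 153, 154 and 85 bases in control and 195 and 88 in HA-Bcl-xL libraries. In both pairs the main peak lay past the 3′ end of the H2B gene's canonical transcript, at H2BC11 still inside the longer annotated gene.

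H2BC18 at 1q21 (chr1:149754245-149783928, minus strand) had the highest mean rank of all 63 genes, 92.6. It had 30, 28 and 16 fragments at the summit in control and 24 and 23 in HA-Bcl-xL libraries, with summits 91 to 100 bases before its most 5′ end. Bases under its peaks were 327, 220 and 232 in control and 200 and 236 in HA-Bcl-xL libraries, so the lines overlap. H2AC19, also at 1q21 (chr1:149822628-149823161, plus strand), led the H2A genes with a mean rank of 75.1 and 28, 20 and 21 fragments in control and 22 and 22 in HA-Bcl-xL libraries. Both have copies on these chromosomes that match at 98.7 and 99.9% of bases, and it is not given in the sources used here how reads matching several places were handled.

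H2AC15 and H2BC15 had the lowest mean rank of the H2A and H2B genes found in all 5 libraries, 34.1. They shared 1 set of peaks, with 473, 122 and 88 bases in control and 333 and 87 in HA-Bcl-xL libraries. Control replicate 1 and HA-Bcl-xL replicate 2, the longest lists of their lines, had the widest coverage. The testis-type pair H2AC1 and H2BC1 had no peak, and the nearest one was 73825 and 74040 bases away. Its stretch of 216 bases holds 3 CCAAT, 2 TATAAA and 1 octamer match, as many kinds of match as the pair H2BC12 and H2AC12, which has peaks nearby. H2AC7 and H2AC11 were the other genes of these types with no peak in any library.

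Among H4 genes, H4C5 (chr6:26204838-26205249, plus strand) had the highest mean rank, 75.6, with a peak in 4 libraries and none in control replicate 2. It had 20 and 14 fragments at the summit in control replicates 1 and 3 and 14 and 18 in HA-Bcl-xL libraries. Its leading summits lay 793 and 811 bases past the start in control and 731 and 795 past it in HA-Bcl-xL libraries, beyond the end of its 412-base transcript. The 250 bases before its start, printed above, hold none of the 4 motifs. H4C14 at 1q21 (chr1:149804221-149811339, plus strand) was the lower in rank of the 2 H4 genes found in all 5 libraries, at 59.3, with 291, 110 and 78 bases in control and 430 and 76 in HA-Bcl-xL libraries. H4C15 had 286 and 99 bases in control replicates 1 and 2 and no peak in control replicate 3 or either HA-Bcl-xL library. H4C14 and H4C15 are identical copies over the stretch compared, so their values cannot be told apart.

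H4C8 was the other H4 gene with a peak in all 5 libraries, with 354, 333 and 153 bases in control and 252 and 509 in HA-Bcl-xL libraries. Unlike at H4C5, its leading summits lay before the canonical start in all 5 libraries, at −314, −362 and −308 in control and −362 and −108 in HA-Bcl-xL libraries. H4C13 was counted in 4 libraries, but in control replicate 2 and both HA-Bcl-xL libraries only through 65, 13 and 14 bases at the window's edge, from a peak that leads at H3C11. H4C4, H4C7, H4C9, H4C11 and H4C12 had no peak in any library. H4C9, whose upstream stretch is printed above, holds 1 CCAAT match there.

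Summed over the histone genes, most bases under peaks lay before the gene. Measured from the canonical start, 71.5, 73.3 and 78.7% of bases under peaks within 1 kb lay upstream in control and 74.6 and 73.5% in HA-Bcl-xL libraries. At other protein-coding genes with a promoter peak 46.9 to 50.2% did. Inside the transcript lay 8.19 to 16% of bases at histone genes against 49.7 to 53.0% at other genes, and past the 3′ end 10.5 to 18.5% against 0.0537 to 0.0988%, a gap that the shortness of histone genes favours. The excess upstream of histone genes was present in all 5 libraries, and it was also present at histone genes outside head-to-head pairs, with 73.4 to 84.0%.

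**Figure D3:**
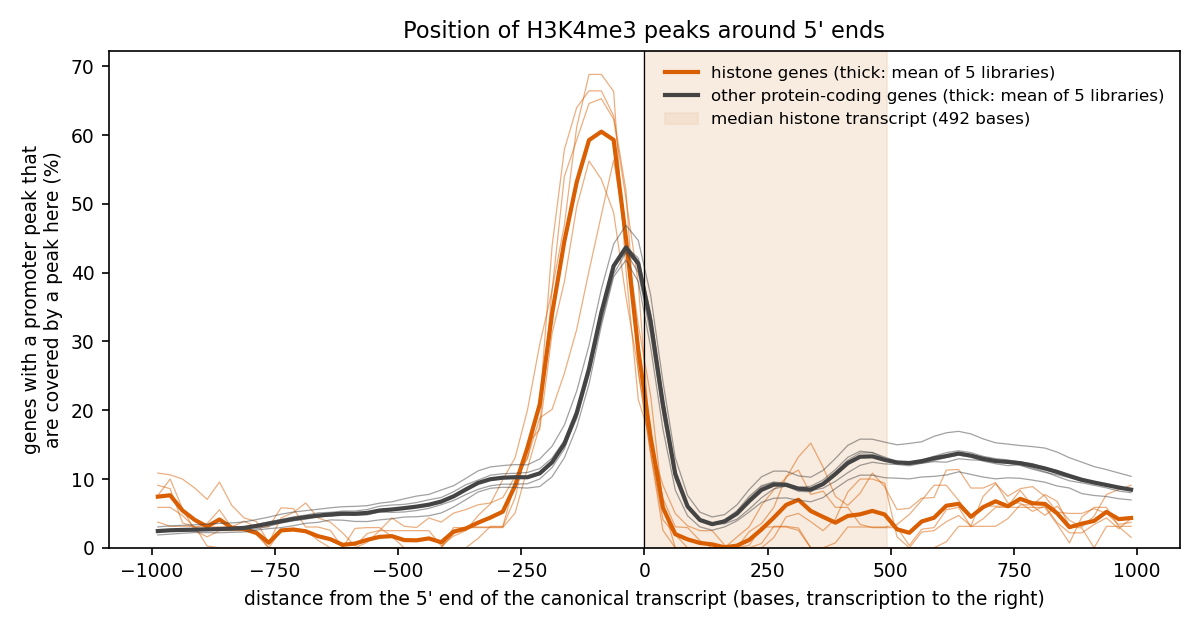
Percentage of genes with a promoter peak that are covered by a peak at each distance from the canonical 5′ end, in bins of 25 bases with transcription to the right, for histone genes and other protein-coding genes. Thin lines are the 5 H3K4me3 libraries, thick lines their means, and shading marks the median histone transcript of 492 bases, where the mean line of histone genes lies below that of other genes (though not throughout in control replicate 1 and HA-Bcl-xL replicate 3), in contrast to the stretch just before the start.

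Each of 182 peaks within 1 kb of a histone gene was given to its nearest histone start, which placed peaks at 46 genes. Of 50 H3 summits, 46 lay within 200 bases before the start (92.0%), with a median at −86.5 and none past the 3′ end. All 6 H1 summits lay in that stretch too. H2A and H2B summits had medians of −49.5 and −57, with 28 of 48 and 24 of 51 within 200 bases before the start, and 12 H2B summits past the 3′ end. H4 summits had a median of 281, with 2 of 27 in the 200 bases before the start, and 9 upstream, 9 in the transcript and 9 past the 3′ end. They came from 7 genes, so this median rests on few places. H4C14 and H4C15, whose values cannot be told apart, gave 7 and 3 of these summits, each with a median of 281. H4C5 gave 6 with a median of 762, and H4C8 gave 6 with a median of −311. At other protein-coding genes 29.5 to 35.0% of summits lay within 200 bases before the start. Peaks of 1 gene in 5 libraries are repeats of 1 place, so these counts describe positions and carry no test.

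**Figure D4:**
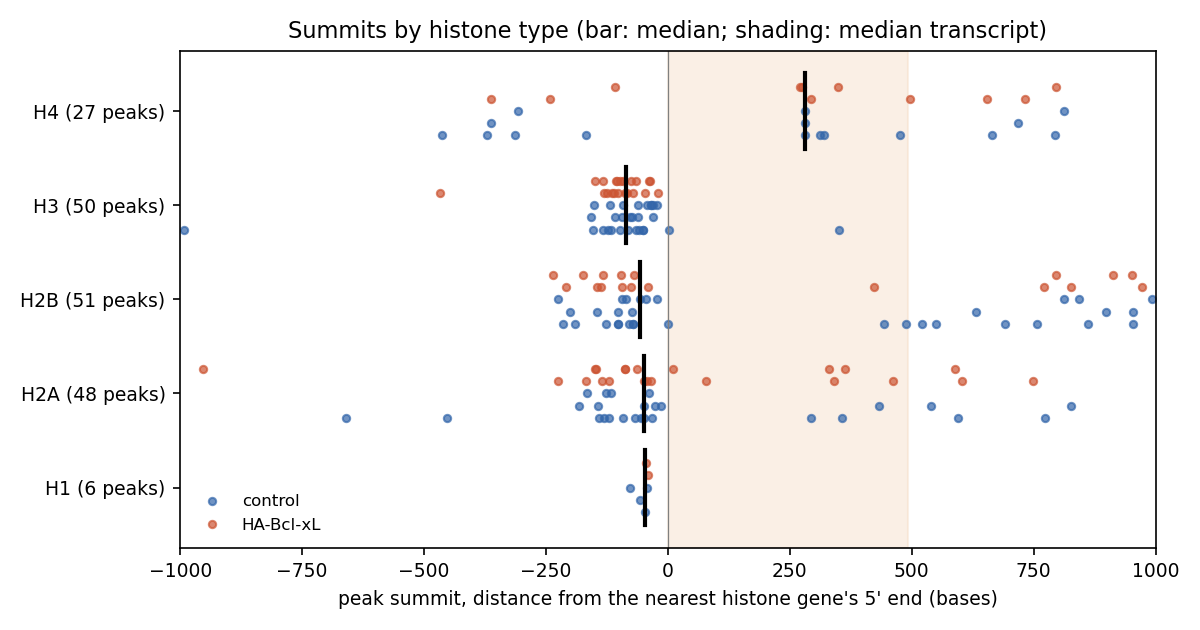
Distance of each peak summit from the nearest histone gene's canonical 5′ end, by type, for 182 peaks in 3 control and 2 HA-Bcl-xL libraries, with black bars at the medians and shading over the median transcript. H3 summits gather before the start around −86.5 bases, while H4 summits, from 7 genes, spread around 281.

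Some genes had summits in nearly the same place in every library with a peak, and others did not. H3C3 summits lay between −157 and −99 bases from the start in 4 libraries, and H2BC3 summits between −236 and −201 in 5. H2AC8 summits ran from −661 to 826 and H4C14 summits from −370 to 717. H2BC11 summits lay 827 to 952 bases past the start, beyond its transcript of 480 bases. H2BC12 summits ran from 0 to 811 with a median of 763, most of them beyond its transcript of 495 bases. H4C1, with a transcript of 402 bases, had summits 655 and 665 bases past the start. These genes were chosen after their values were seen.

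Peaks at histone genes stood on a higher local background than promoter peaks as a whole. Their summits had a median of 16, 13.5 and 11 fragments in control and 16.5 and 14 in HA-Bcl-xL libraries, where all promoter peaks had 12, 11 and 10, and 11 and 11. The median local background solved for the same peaks was 1.72, 1.28 and 0.890 fragments in control and 1.39 and 1.30 in HA-Bcl-xL libraries, against 0.475 to 0.719 at all promoter peaks. The authors' fold over that background was correspondingly lower, with medians of 6.17 to 6.54 against 6.93 to 7.23. Ranked by −log10 p within their lists, peaks at histone genes had median percentiles of 42.7, 57.8 and 47.1 in control and 60.3 and 47.8 in HA-Bcl-xL libraries, against 56.2, 56.9 and 57.6, and 57.6 and 57.2 for all promoter peaks. They were lower in control replicates 1 and 3 and HA-Bcl-xL replicate 3. In median width the peaks were close, 119 to 148 bases against 117 to 137.

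Between the lines, the number of histone genes with a peak did not differ beyond the spread of replicates. It was 37.3 ± 8.39 (SD, n = 3) in control and 37 ± 4.24 (SD, n = 2) in HA-Bcl-xL libraries, a difference of −0.333 against a pooled SD of 7.27. No histone gene had peaks confined to the 2 HA-Bcl-xL libraries and present in each, a pattern found at 0.844% of all genes, and none had the reverse pattern over the 3 control libraries, found at 0.248%. All 6 histone genes with a peak in a single library had it in control replicate 1, as 2.32% of all genes did: H2BC5, H2AC14, H2BC14, H3C12, H2AC17 and H2BC17. Its direction rested on single libraries: without control replicate 1 the HA-Bcl-xL mean was 4.5 genes higher, and without HA-Bcl-xL replicate 3 it was 2.67 higher, both less than that SD.

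Widths were compared where a width exists in every library, at the 4289 promoters with a peak in all 5. The bases under peaks were tested on the log2 scale with limma, each library centred on its median, and p-values were adjusted over all 4289 by Benjamini-Hochberg. With limma no promoter passed an adjusted p of 0.05 (0% called), and 210 (4.9%) had an unadjusted p under 0.05. Of the 23 histone genes tested, 0 passed and 0 had an unadjusted p under 0.05, and their smallest adjusted p was 0.969. Their median log2 change was −0.07, with 9 higher and 14 lower in HA-Bcl-xL cells, against −0.02 for all promoters. Without centring the median was 0.06 and the split 14 higher and 9 lower, as all promoters moved to 0.10, so no direction is given for the group.

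H2AC25 and H2BC26 had the smallest p for a higher width, with a log2 change of 0.79 (SE 0.407), an unadjusted limma p of 0.0727 and an adjusted p of 0.969. H3C10 had the smallest p for a lower width, with 248, 132 and 137 bases in control and 116 and 141 in HA-Bcl-xL libraries. Its log2 change was −0.49 (SE 0.399), with an unadjusted limma p of 0.236 and an adjusted p of 0.988. Its 2 lines overlap, and control replicate 1 alone is wide. Data of the same size were simulated with normal values and 1 SD shared by all promoters. Of these promoters, 100 were changed by 1 and 100 by 2 on the log2 scale, and 11% and 79% were recovered. Real promoters differed in spread, with an SE of 0.390 at H3C8 and 0.819 at H2AC12, so these rates may not hold for the data. Width changes of 1 or less could go undetected with these libraries.

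**Figure D5:**
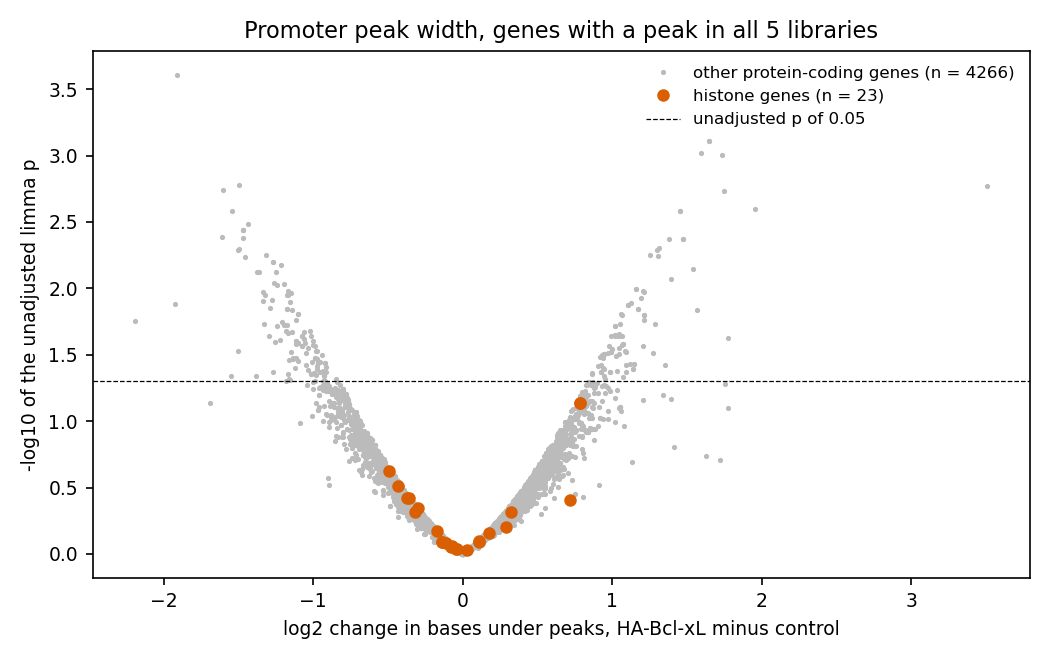
Log2 change in bases under promoter peaks (HA-Bcl-xL minus control, each library centred) against −log10 of the unadjusted limma p, for 23 histone genes and 4266 other protein-coding genes with a peak in all 5 libraries. The dashed line marks an unadjusted p of 0.05, and all 23 histone genes lie under it, the highest being H2AC25 and H2BC26 at a log2 change of 0.79.

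Genes that act on the replication-dependent histone genes were counted by the same rule. Of 23 regulators and processing factors, 9 had a promoter peak in all 5 libraries, 11 in some and 3 in none, against 21.3, 26.9 and 51.8% of all genes. The 9 were HINFP, which binds H4 promoters, CASP8AP2, a component of the histone locus body, CDK2, the kinase of cyclin E, ZNF473, CPSF2 and CPSF3 of the 3′ end processing machinery, and NCBP1, NCBP2 and SRRT of the cap-binding complex. NPAT had 88 and 268 bases in control replicates 1 and 2 and 93 in HA-Bcl-xL replicate 3, and none in the other two. SLBP, which binds the stem-loop, had 82 bases in control replicate 1 only, and CCNE1, ERI1 and CRAMP1 had no peak.

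Histone chaperones and histone genes outside the clusters were counted beside the same shares of all genes, 21.3% in all 5 libraries, 26.9% in some and 51.8% in none. Of 11 chaperone genes, RBBP4, NASP, HAT1 and HIRA had a peak in all 5 libraries, 6 had one in some, and ATRX had none. Of 12 histone genes outside the clusters, most of them replication-independent genes for variants but also the H4 gene H4C16, H2AX, H2AJ, H2AZ2 and MACROH2A2 had one in all 5, 5 had one in some, and H3-3A, H3-5 and MACROH2A1 had none. H3-3B, 1 of the genes for the replacement histone, had 99 bases in control replicate 1 and 99 in HA-Bcl-xL replicate 3 only. No gene of these 3 lists had a peak in all libraries of one line and none of the other, patterns found at 0.844 and 0.248% of all genes. A missing peak does not show a missing mark at this depth.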

How the data were processed

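H3K4me3 and IgG CUT&RUN were done on 2 BON1 lines (4 groups, 12 labelled samples). The 11 peak lists used here hold 1 library each, with no calls on pooled replicates. The first HA-Bcl-xL replicate with the H3K4me3 antibody is not analysed here. The submitters' processing notes name bcl2fastq 2.20, Trimmomatic 0.36, Bowtie2 2.2.9, MACS2 2.1.1, deepTools 3.5.1 and hg19. Settings, the control used in calling, and the treatment of duplicates and of reads with several matches are not given in the sources used here. Of each peak the authors deposited the summit's offset in bases, −log10 p, −log10 q, a score and the fold over background. The lowest deposited −log10 q was 2.00, so weaker signal is unseen. All of these were used within a list only, except that fold and −log10 p were solved for a whole number of fragments and a local background, to within 0.001 in −log10 p, which are given per gene and library without a test, and as medians beside each list's own. The solution worked for 95.9 to 99.97% of peaks and was inferred from the values.

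Genes came from GENCODE 44 lifted to GRCh37. A promoter was 1 kb on either side of the most 5′ end. For 56 of 63 histone genes the canonical transcript starts there, and for 3 (H2BC6, H3C6, H3C12) it starts more than 200 bases away. Positions, pairs and sequences use the canonical start, and coordinates are 1-based. Copies were matches of at least 500 bases and 98% identity on chromosomes 1 and 6 (blastn 2.17.0). The width test used limma 3.58.1 (R 4.3.3), log2 bases under peaks and Benjamini-Hochberg adjustment. Python 3.11.15, numpy 2.4.6, pandas 2.3.3, scipy 1.17.1, pysam 0.24.0 and matplotlib 3.10.9 were used. Overlap counting, the fragment solution and the limma step were tested on simulated data.

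The members, gene lists, motifs and alternatives were chosen with earlier results of these data known. Genes named with values were, in each histone type, those with the highest and, among genes found in all 5 libraries, the lowest mean percentile rank of −log10 p. The rule also covered genes with a peak in every library of 1 line and none of the other, and genes with a peak in IgG. Also named were the smallest width p in each direction, and H1-6, H2AC1 and H2BC1. Genes outside this rule were chosen after their values were seen. PECAM1, a listed endothelial marker, was not matched by symbol. Of the neuroendocrine markers listed, 1 is not reported here.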

Additional observations from a re-analysis of the deposited data

How the results depend on the processing

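The count of 23 histone genes with a peak in all 5 libraries became 12 at a −log10 q of at least 5, 14 within 500 bp (22.2%, against 15.2% of all genes) and 41 within 2.5 kb. It was 23 to 27 with 1 library left out, and 20 of 54 without the 9 genes with a near-identical copy. The difference between lines in histone genes per library (HA-Bcl-xL minus control) turned to 2.83 at a −log10 q of at least 5 and ran from −3.33 to 4.5 with 1 library left out. It turned to 4.5 without control replicate 1 and 2.67 without HA-Bcl-xL replicate 3. H3K4me3 exceeded IgG by 37.2 genes per library, and by 29.8 at the q limit, 30.2 within 500 bp, 48.0 within 2.5 kb and 34.8 to 38.5 with 1 library left out. Genes found in HA-Bcl-xL libraries only numbered 0 to 2, the 2 without control replicate 2. Genes found in control libraries only numbered 0 to 1 with 1 library left out, and 1 within 2.5 kb. Promoters passing limma numbered 0 to 9 with 1 library left out (1 without control replicate 2, 3 without HA-Bcl-xL replicate 2, 9 without HA-Bcl-xL replicate 3) and 1 within 500 bp. A lone HA-Bcl-xL library is then assumed to vary like the control. Control and HA-Bcl-xL libraries share only replicate numbers 2 and 3, whose deviations from the mean of their line correlated at 0.0256 and 0.0480. The deviations of the 2 HA-Bcl-xL libraries mirror each other, so these values cannot decide whether the numbers pair the samples. With a replicate block limma called 13 promoters, 0 of them histone genes. No setting run with limma gave a histone gene an adjusted limma p under 0.05. Apart from single libraries left out, 41 of 51 values stayed within the limits set, 9 moved and 1 reversed. The causes were not tested. Measuring from the canonical start, an alternative chosen after seeing the data, also gave 23. The lists give no read totals, so the effect of depth on peak numbers was not tested, and a missing peak does not show a missing mark.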
